A study of Homo sapiens with 4 samples.

Results

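The nuclear genes that code for subunits of the mitochondrial respiratory chain and of ATP synthase were examined in cells labelled NB4, an established promyelocytic leukemia line with the PML-RARa fusion. The genes were chosen by symbol alone: every protein-coding gene of the NDUFA, NDUFB, NDUFC, NDUFS and NDUFV series with NDUFAB1, SDHA to SDHD, the UQCR series with CYC1, the COX4 to COX8 genes with a letter A to C after the number, and the ATP5F, ATP5M and ATP5P series. The rule found 86 genes among 64252 gene identifiers, 37 for complex I, 4 for complex II, 10 for complex III, 16 for complex IV with NDUFA4 counted there, and 19 for complex V. All 86 were present in the count table. The study compared 2 libraries from cells given 8 μM dBET1 for 24 h with 2 libraries from cells given the same volume of its solvent DMSO for 24 h. dBET1 is a degrader of BET family proteins in which a bromodomain ligand is linked to a binder of CRBN, the substrate adaptor of an E3 ubiquitin ligase. Both groups came from 1 cell line at 1 dose and 1 time, and all libraries carry the label NB4. The labels number replicates 1 and 2 in each group without saying that these were separate cultures, so p-values measure the spread between these libraries, which may be technical.

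The respiratory chain passes electrons from NADH and succinate through complexes I and II, ubiquinone, complex III and cytochrome c to oxygen at complex IV. Complexes I, III and IV pump protons across the inner mitochondrial membrane, and complex V, the ATP synthase, uses the return of those protons to make ATP. Most subunits are coded in the nucleus and imported, while the hydrophobic cores of complexes I, III, IV and V also hold subunits coded by mitochondrial DNA. Dependence on this pathway has been reported for some leukemia cells of the myeloid lineage, and was not measured here.

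The depth was 28019956 to 34685645 counts per library, and levels are given as CPM, counts scaled to a fixed total with TMM-adjusted library sizes. Such levels, and the changes drawn from them, are relative to the other genes of a library and do not give the amount of RNA per cell. The labelled cell type was checked against marker genes. Granule genes that define promyelocytes were absent or nearly so, with ELANE and CTSG at 0 counts in every library and MPO at 0 and 0 counts with DMSO and 22 and 10 with dBET1. The 6 listed genes, granule genes with the transcription factor CEBPE, summed to 1.1 to 2.2 CPM over the 4 libraries. Of them, 4 had a count in any library. CEBPE alone held 1.10 and 0.605 CPM with DMSO and 0.367 and 0.426 CPM with dBET1. All 8 erythroid markers were detected, at a summed 6412 and 6992 CPM with DMSO and 3954 and 3983 CPM with dBET1, and 7 of the 8 fell with dBET1, beside 27.6% of all tested genes, among them KLF1, a regulator of globin genes, by 2.19 on the log2 scale. The libraries are therefore called those labelled NB4. The part of these erythroid genes in the values below was not tested, and in bulk RNA fewer cells of a type and less RNA per cell cannot be told apart.

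Of the 86 genes, 81 passed the filter on low counts and were tested, and 73 of these fell with dBET1 at a Benjamini-Hochberg adjusted p under 0.05 in edgeR's quasi-likelihood test. Across all 17971 genes tested, 27.6% were lower and 28.0% were higher by the same rule, so that 90.1% of the tested subunit genes stood beside a background of 27.6%. The median log2 fold change of the 81 genes was -0.83, a ratio of 0.561, with quartiles at -0.97 and -0.64, while the median of all tested genes was 0.048. A single gene rose, the readthrough ATP5MF-PTCD1, and 7 did not pass the test: NDUFS4, NDUFV3, NDUFA2, NDUFB5 and NDUFA3 of complex I, and COX7A2L and COX6B2 of complex IV. In 76 of the 81 genes both dBET1 libraries lay below both DMSO libraries in CPM, which held for 37.4% of all tested genes.

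**Figure D1:**
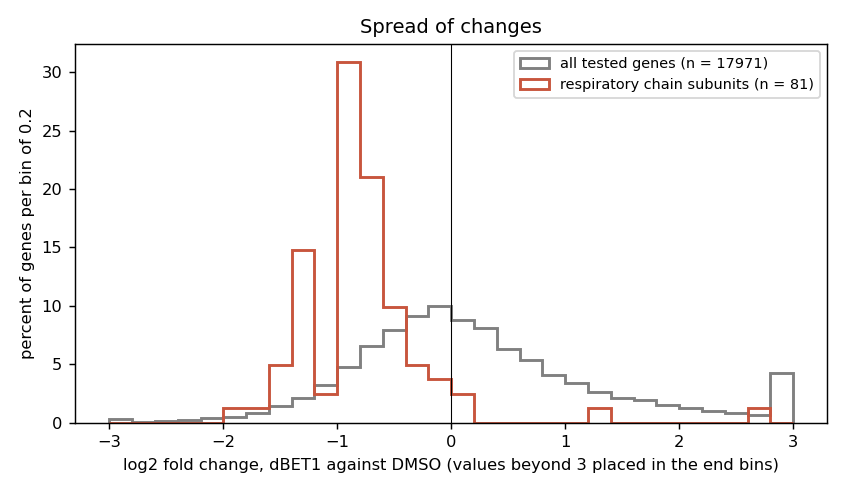
The histogram shows the log2 fold change (dBET1 against DMSO, horizontal axis, bins of 0.2) as a percent of genes for the 81 tested subunit genes in red and all 17971 tested genes in grey, with values beyond 3 placed in the end bins. The subunit genes are gathered around their median of -0.83, while all tested genes spread around a median of 0.048.

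Genes at the level of these subunit genes fell more often than the table as a whole. The tested subunit genes spanned 33.2 to 225 CPM from the 10th to the 90th percentile of mean level, a range chosen after the data were seen. Of all 5318 tested genes in that range 50.7% were lower, with a median log2 fold change of -0.27. Of the 65 subunit genes in it, 61 were lower, with a median of -0.87. The histogram of all changes and these values show that the subunit genes lay toward the low side of the table, with 13.2% of all tested genes below the subunit median, and not at its extreme.

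With the additional limit of a log2 fold change below -1, 20 subunit genes were lower, compared with 8.54% of all tested genes, and 1 was higher, compared with 16.9% of all tested genes. The typical decrease was therefore less than 2-fold. The count below that limit depended on the control libraries: it was 34 without DMSO replicate 1 and 19 to 24 when each of the other libraries was left out. DMSO replicate 2 had the higher CPM in 65 of the 78 subunit genes with at least 100 counts in every library, with a median log2 ratio of replicate 2 to replicate 1 of 0.14. In the dBET1 pair the corresponding median was -0.024, and the number higher in replicate 2 was 31 of 78. Summed over all 86 genes, levels were 14054 and 15416 CPM with DMSO and 8121 and 7922 CPM with dBET1, a gap far wider than that between replicates.

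**Figure D2:**
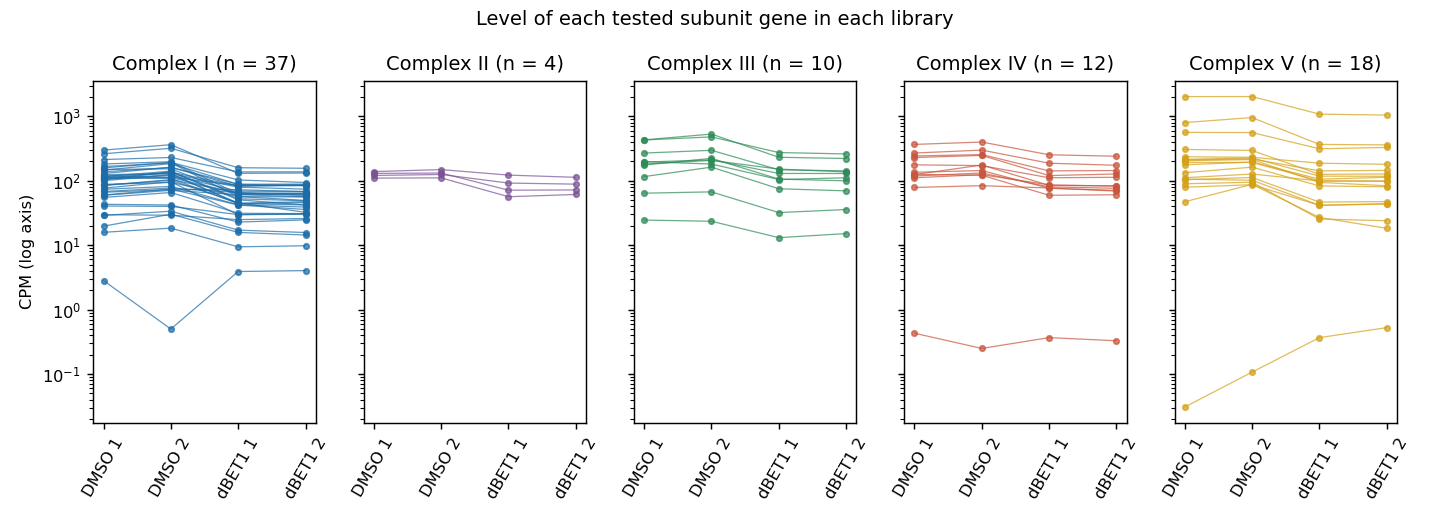
Each line is 1 tested subunit gene, with its level in CPM on a log axis in the 2 DMSO and the 2 dBET1 libraries, in a panel for each complex (n = 37, 4, 10, 12 and 18 genes). Most lines in every panel drop between the DMSO and dBET1 libraries, and the 3 lines under 5 CPM, NDUFA3, COX6B2 and ATP5MF-PTCD1, do not follow the others.

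The decrease reached every complex. It was described by the median log2 fold change, which was -0.83 in complex I, -0.66 in complex II, -0.88 in complex III, -0.67 in complex IV and -0.94 in complex V. All tested genes of complexes II and III were lower, 4 and 10, with 32 of 37 in complex I, 10 of 12 in complex IV and 17 of 18 in complex V. The 20 genes with a log2 fold change below -1 were 11 of 37 tested in complex I and 7 of 18 in complex V. They were 1 of 10 in complex III, 1 of 12 in complex IV and 0 of 4 in complex II. The differences between complexes were not tested. As ratios of summed CPM, dBET1 to DMSO, the complexes stood at 0.526, 0.666, 0.557, 0.610 and 0.518 from I to V.

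**Figure D3:**
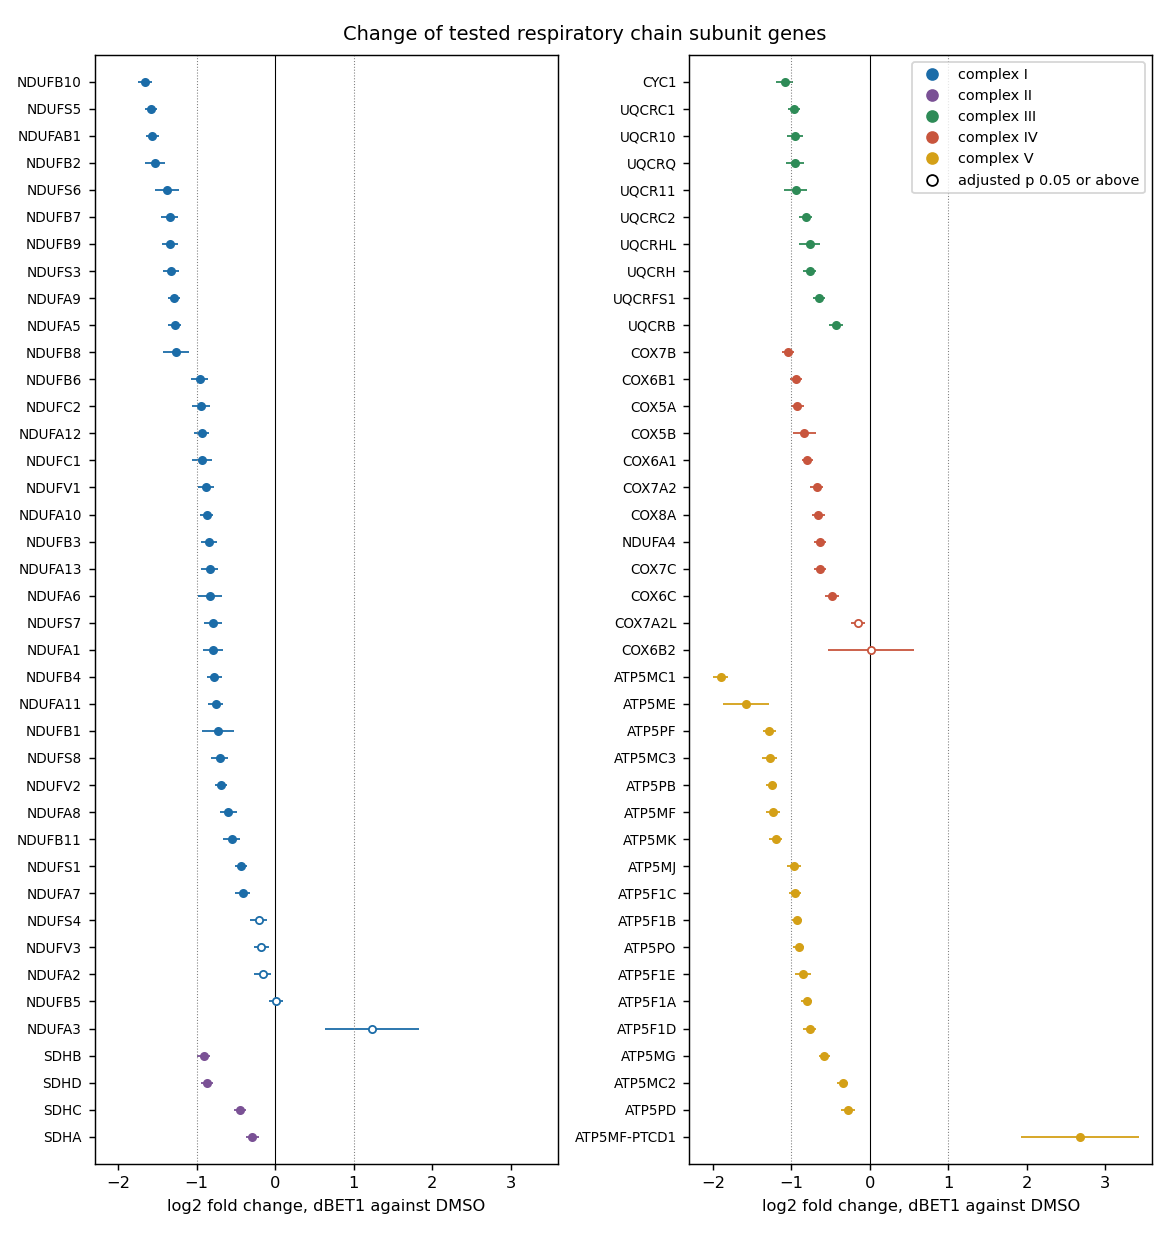
Each point is the log2 fold change of 1 tested subunit gene, dBET1 against DMSO, colored by complex and ordered within it. Bars are 1 SE, derived from the F statistic of edgeR's quasi-likelihood test with 2 libraries a group. Dotted lines mark -1 and 1, and 1 tested gene is not drawn. Open points (adjusted p of 0.05 or above) are 7 of the 81, and the lowest point of all is ATP5MC1 at -1.90.

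Complex I oxidizes NADH. Its tested genes summed to 3865 and 4449 CPM with DMSO and 2223 and 2153 CPM with dBET1. The gene with the lowest log2 fold change was NDUFB10, an accessory subunit of the distal membrane arm (chr16:1959538-1961975 on hg38, plus strand). NDUFB10 was at 166 and 190 CPM with DMSO and 56.7 and 56.1 CPM with dBET1, a log2 fold change of -1.66 ± 0.091 (SE, n = 2 a group; edgeR quasi-likelihood test, Benjamini-Hochberg adjusted p = 1.33e-05). Per kb of transcript, the level of NDUFB10 went from the 4th highest of complex I with DMSO to the 14th with dBET1. NDUFS5, an accessory subunit on the intermembrane-space side, was at 182 and 198 CPM with DMSO and 62.6 and 64.5 CPM with dBET1 (log2 fold change -1.58 ± 0.081). NDUFAB1, the mitochondrial acyl carrier protein that also serves fatty acid and lipoic acid synthesis, was at 124 and 130 CPM with DMSO and 44.1 and 42.2 CPM with dBET1 (-1.56 ± 0.083). In these 3 genes the gap between the groups was many times that between the replicates.

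The remaining complex I genes that fell past a log2 fold change of -1 were NDUFB2 at -1.53, NDUFS6 at -1.38, NDUFB7 at -1.34, NDUFB9 at -1.34, NDUFS3 at -1.33, NDUFA9 at -1.29, NDUFA5 at -1.28 and NDUFB8 at -1.26. NDUFB9 had the highest level of the complex per kb with DMSO, 480 CPM per kb, and its libraries were at 300 and 364 CPM with DMSO and 131 and 132 CPM with dBET1. Among the 11 NDUFB genes, which code for subunits of the membrane arm, 10 fell and 5 did so past -1, with a median log2 fold change of -0.96. The exception was NDUFB5 at 66.3 and 73.1 CPM with DMSO and 72.5 and 68.0 CPM with dBET1, where the groups overlapped (0.01 ± 0.090, adjusted p = 0.924 in edgeR's test with Benjamini-Hochberg adjustment).

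The core subunits, those with counterparts in the bacterial enzyme, include those that carry the flavin and the iron-sulfur clusters. All 7 nuclear core genes fell, with a median of -0.70, beside 25 of 30 accessory genes with a median of -0.86. NDUFV1, which binds NADH and the flavin, was at 263 and 320 CPM with DMSO and 160 and 156 CPM with dBET1 (log2 fold change -0.88 ± 0.10). NDUFS1, which holds iron-sulfur clusters of the peripheral arm, changed less, from 118 and 114 CPM to 84.3 and 86.3 CPM (-0.44 ± 0.076). NDUFS7, which lies at the ubiquinone site, had a log2 fold change of -0.79. NDUFS3 at -1.33 was the only core gene past -1, so the core genes ranged from -1.33 to -0.44.

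Among the other complex I genes that did not pass the test, 3 had negative values. NDUFS4, an accessory subunit at the electron input module, was at 29.7 and 29.2 CPM with DMSO and 24.96 and 25.9 CPM with dBET1 (log2 fold change -0.21 ± 0.10), with replicates close together. NDUFV3 had a value of -0.17 ± 0.093 and NDUFA2 of -0.15 ± 0.11, and in both the DMSO replicates differed by more than the group means. NDUFA3 had few reads, 92 and 14 counts with DMSO and 117 and 123 with dBET1, and its DMSO libraries disagreed with each other more than the groups did. Whether its identifier holds all reads of the gene was not tested. Its log2 fold change of 1.23 ± 0.60 had an adjusted p of 0.115 by edgeR with Benjamini-Hochberg adjustment. NDUFA7, at -0.41, was the smallest decrease of the complex that passed the test.

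The promoters of these genes were searched for letters bound by factors known from nuclear genes of mitochondrial proteins. The RefSeq table of promoters (GRCh38.p14, 250 bases before to 50 after a gene's start) held 65 of the 81 tested genes and 15345 protein-coding genes. Both strands were searched for GCATGCGC, the core of the NRF1 site, CCGGAAG, an ETS core as bound by GABP, AAGATGGCG, a YY1 site, CACGTG, the E-box bound by MYC and its relatives, and GGGCGG, the GC box bound by SP1. NRF1 letters were present in 13 of the 65 promoters, 20.0% beside 4.25% of all coding promoters, ETS letters in 29.2% beside 14.4%, and YY1 letters in 12.3% beside 2.80%. E-box letters were present in 10.8% beside 8.89%, and GC box letters in 61.5% beside 59.2%. No motif lies within another, but CCGGAAG can share its last letters with the start of AAGATGGCG, and GCATGCGC can overlap its own reverse complement.

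Among the subunit genes, the medians with and without a motif lay close together, with the widest gap for the E-box, held by only 7 of the 65 promoters. These differences were not tested. The median log2 fold change was -0.83 with and -0.85 without NRF1 letters, -0.87 and -0.84 for ETS, -0.87 and -0.84 for YY1, -0.94 and -0.84 for the E-box, and -0.83 and -0.88 for the GC box. A match is a run of letters and not a measured binding site. The complex I promoters below are shown for contrast: NDUFB10 was the lowest of complex I, NDUFV3 did not pass the test, and NDUFS7, a core subunit at -0.79, held 4 of the 5 motifs. Sequences are written 5′ to 3′ on the gene's strand with motif letters in capitals, and all 3 genes lie on the plus strand.
NDUFB10, chr16:1959288-1959587: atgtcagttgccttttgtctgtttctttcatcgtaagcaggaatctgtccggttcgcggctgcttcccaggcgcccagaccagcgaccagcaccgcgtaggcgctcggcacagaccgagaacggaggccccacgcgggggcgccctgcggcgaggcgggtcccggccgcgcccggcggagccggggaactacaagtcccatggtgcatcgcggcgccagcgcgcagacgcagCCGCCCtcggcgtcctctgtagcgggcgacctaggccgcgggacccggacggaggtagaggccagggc
NDUFS7, chr19:1383657-1383956: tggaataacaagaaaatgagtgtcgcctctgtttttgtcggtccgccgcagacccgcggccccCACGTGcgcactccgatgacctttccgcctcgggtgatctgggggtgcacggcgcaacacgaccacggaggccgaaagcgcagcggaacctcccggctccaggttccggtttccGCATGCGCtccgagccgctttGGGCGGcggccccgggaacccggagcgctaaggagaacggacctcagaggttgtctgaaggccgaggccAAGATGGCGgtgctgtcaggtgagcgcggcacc
NDUFV3, chr21:42893059-42893358: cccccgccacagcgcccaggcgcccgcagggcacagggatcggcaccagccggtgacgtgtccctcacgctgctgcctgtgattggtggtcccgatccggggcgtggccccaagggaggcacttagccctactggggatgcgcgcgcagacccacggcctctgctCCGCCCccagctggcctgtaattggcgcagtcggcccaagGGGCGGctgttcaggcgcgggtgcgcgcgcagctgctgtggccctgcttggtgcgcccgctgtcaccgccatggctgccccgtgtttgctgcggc
The NDUFB10 window held 1 GC box, read on the opposite strand from base -18, where +1 is the RefSeq start used for the window, which can differ from the first base of the gene in GENCODE. The NDUFS7 window held an E-box from -187, the NRF1 core from -73, a GC box from -52 and the YY1 letters from +18. The NDUFV3 window held 2 GC boxes, from -85 on the opposite strand and from -45.

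Complex II, succinate dehydrogenase, is coded wholly in the nucleus and also works in the citric acid cycle. All 4 genes fell, 2 by more and 2 by less. SDHB, the iron-sulfur subunit, was at 110 and 111 CPM with DMSO and 56.6 and 61.3 CPM with dBET1 (-0.91 ± 0.083), and SDHD, a membrane anchor, was at 130 and 132 CPM with DMSO and 71.4 and 72.1 CPM with dBET1 (-0.87 ± 0.076). SDHC, the other anchor, had a log2 fold change of -0.45 ± 0.077. SDHA, the flavoprotein, was at 139 and 149 CPM with DMSO and 123 and 113 CPM with dBET1 (-0.29 ± 0.082, adjusted p = 0.018 by edgeR with Benjamini-Hochberg adjustment). The SDHA value is less certain than the others, since pseudogenes named after SDHA held counts equal to 55.0% of its own with DMSO and 69.2% with dBET1. With those counts added its log2 fold change was -0.16 with an adjusted p of 0.081 by the same edgeR test.

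Complex III hands electrons from ubiquinol to cytochrome c, and all 10 of its genes fell. CYC1, cytochrome c1, was the only member past -1, at 432 and 532 CPM with DMSO and 232 and 222 CPM with dBET1 (log2 fold change -1.09 ± 0.10; edgeR, Benjamini-Hochberg adjusted p = 0.000103). UQCRC1, a core protein of the matrix side, was at 270 and 297 CPM with DMSO and 148 and 143 CPM with dBET1 (-0.96 ± 0.079). UQCRFS1, the Rieske iron-sulfur protein, had a smaller decrease of -0.65 ± 0.076. The smallest was that of UQCRB, a ubiquinone-binding subunit, at -0.43 ± 0.093. UQCRH, the hinge protein, had the highest level of the complex per kb with DMSO, 848 CPM per kb, and fell by 0.77 on the log2 scale. UQCRHL, an intron-less copy of UQCRH, also had a value of -0.77, at 24.5 and 23.5 CPM with DMSO and 13.1 and 15.1 CPM with dBET1, but reads of such near-identical copies may have been exchanged, so the UQCRHL value is uncertain.

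Complex IV, cytochrome c oxidase, passes electrons to oxygen at a catalytic core coded by mitochondrial DNA, around which the nuclear subunits are arranged. Of its 16 genes, 12 were tested and 10 fell. COX7B was the lowest, at 126 and 122 CPM with DMSO and 59.5 and 60.7 CPM with dBET1 (log2 fold change -1.04 ± 0.078; edgeR, Benjamini-Hochberg adjusted p = 3.70e-05). COX5A and COX5B, subunits close to the core, had values of -0.92 ± 0.083 and -0.83 ± 0.15. COX7C, at 610 CPM per kb the highest of the complex with DMSO, had a value of -0.63 ± 0.076, NDUFA4 one of -0.64 ± 0.073 and COX6C one of -0.48 ± 0.087. COX7A2L, which takes part in joining complexes III and IV into supercomplexes, stood apart at 78.8 and 84.0 CPM with DMSO and 77.3 and 69.2 CPM with dBET1 (-0.15 ± 0.091, adjusted p = 0.191 by the same edgeR test).

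Several complex IV subunits exist as a widely expressed isoform and an isoform of muscle, testis or other tissues. The widely expressed isoforms made up nearly all of these reads and fell: COX6A1 at -0.80, COX6B1 at -0.94, COX7A2 at -0.68 and COX8A at -0.66. Their partners were near or at 0. COX6A2 and COX7B2 had 0 counts in every library, which allows up to 0.0919 to 0.107 CPM, the level of 3 counts. COX7A1 had 3 and 5 counts with DMSO and 0 and 6 with dBET1, COX8C had 0 and 0 with DMSO and 4 and 7 with dBET1, and these genes did not pass the filter. COX6B2 passed it with 14 and 7 counts against 11 and 10, too few to show a difference of the size seen in COX6B1. Changes between isoforms were not tested at these counts.

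Complex V had the lowest median of the 5 complexes, and its tested genes were split by part of the machine. The catalytic head with its rotating shaft holds ATP5F1A to ATP5F1E, and all 5 genes fell, with a median of -0.85. ATP5F1B, the catalytic beta subunit, had the highest level of the complex per kb with DMSO, 1156 CPM per kb, and was at 2031 and 2034 CPM with DMSO and 1084 and 1049 CPM with dBET1 (log2 fold change -0.93 ± 0.065; edgeR, Benjamini-Hochberg adjusted p = 2.81e-05). ATP5F1A, the alpha subunit, was at 565 and 561 CPM with DMSO and 314 and 330 CPM with dBET1 (-0.81 ± 0.069). ATP5F1C, the gamma subunit of the rotating shaft, had a value of -0.95 ± 0.072. In these 3 genes the replicates differed by far less than the groups.

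The peripheral stalk genes ATP5PB, ATP5PD, ATP5PF and ATP5PO all fell, with a median of -1.08, from -1.28 for ATP5PF and -1.25 for ATP5PB to -0.28 ± 0.089 for ATP5PD (adjusted p = 0.0302 by edgeR with Benjamini-Hochberg adjustment). The membrane part, the ATP5M genes, had the lowest median of the group at -1.22, with 8 of 8 tested genes lower and 5 of them past -1: ATP5MC1, ATP5ME, ATP5MC3, ATP5MF at -1.23 and ATP5MK at -1.20. ATP5ME, a subunit at dimer contacts, was at 47.3 and 88.1 CPM with DMSO and 27.0 and 18.3 CPM with dBET1. Its log2 fold change of -1.58 ± 0.29 had the widest error of the 20 genes past -1. As a log2 ratio, its DMSO replicates differed by 0.90, more than in any other of the 78 genes with at least 100 counts. ATP5MF-PTCD1, a readthrough of ATP5MF into PTCD1, had 1 and 3 counts with DMSO and 11 and 16 with dBET1, a ratio of 6.77 (exact 95% interval for counting error 2.36 to 26.6). Its reads cannot be told apart from those of ATP5MF and PTCD1, and its call was lost with DESeq2, without a count filter and in 3 of 4 fits that left out a library. ATP5MGL, with 0 and 0 counts against 2 and 2, was not tested.

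The 3 genes ATP5MC1, ATP5MC2 and ATP5MC3 code for the same mature protein, subunit c of the rotor ring, with different import signals. They fell by unequal amounts. ATP5MC1 (chr17:48892765-48895871, plus strand) was at 89.9 and 94.97 CPM with DMSO and 25.5 and 24.0 CPM with dBET1, and its log2 fold change of -1.90 ± 0.091 was the lowest of all tested subunit genes (edgeR, Benjamini-Hochberg adjusted p = 9.55e-06). ATP5MC3 (chr2:175176258-175181710, minus strand) was at 803 and 959 CPM with DMSO and 367 and 361 CPM with dBET1 (-1.27 ± 0.094). ATP5MC2 (chr12:53632726-53677408, minus strand) was at 236 and 232 CPM with DMSO and 188 and 180 CPM with dBET1 (-0.35 ± 0.070). As a share of the summed CPM of the 3 genes, ATP5MC1 was 7.67% ± 0.406 with DMSO and 4.32% ± 0.108 with dBET1 (SD, n = 2), ATP5MC2 was 19.5% ± 2.06 and 32.1% ± 0.327, and ATP5MC3 was 72.9% ± 2.47 and 63.6% ± 0.435. The groups did not overlap in any of the 3 shares, and with 2 libraries a group no test of the shares was made. The promoters of the genes with the largest and the smallest decrease of the trio are shown in the same manner as for complex I, and that of ATP5MC3 was not in the table.
ATP5MC1, chr17:48892537-48892836, plus strand: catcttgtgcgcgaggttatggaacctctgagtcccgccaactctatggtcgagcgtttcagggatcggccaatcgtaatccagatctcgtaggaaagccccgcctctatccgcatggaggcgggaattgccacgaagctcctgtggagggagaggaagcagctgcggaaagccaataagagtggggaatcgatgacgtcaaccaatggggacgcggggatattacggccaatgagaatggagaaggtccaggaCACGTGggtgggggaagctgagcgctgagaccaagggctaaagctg
ATP5MC2, chr12:53676034-53676333, minus strand: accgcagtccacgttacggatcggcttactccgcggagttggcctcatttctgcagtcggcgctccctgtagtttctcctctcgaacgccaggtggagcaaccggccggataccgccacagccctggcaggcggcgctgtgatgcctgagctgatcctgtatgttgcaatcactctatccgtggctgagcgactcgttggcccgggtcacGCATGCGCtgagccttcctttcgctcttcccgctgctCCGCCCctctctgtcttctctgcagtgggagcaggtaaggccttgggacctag
The ATP5MC1 window held an E-box from +5 and none of the other 4 motifs. The ATP5MC2 window held the NRF1 core from -40 and a GC box on the opposite strand from -3, and no E-box. The 7 tested genes whose windows held the E-box letters spanned much of the range, with ATP5MC1 at -1.90, ATP5ME at -1.58, ATP5PB at -1.25, UQCR11 at -0.94, NDUFS7 at -0.79, NDUFA11 at -0.76 and NDUFA7 at -0.41.

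**Figure D4:**
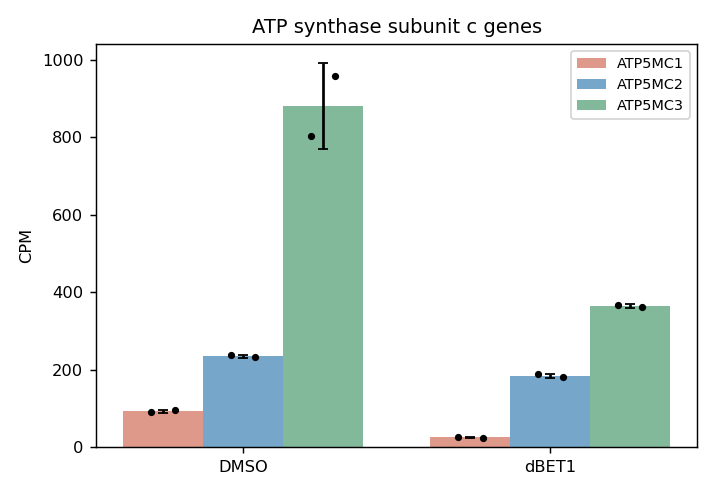
Bars give the mean CPM of ATP5MC1, ATP5MC2 and ATP5MC3 with DMSO and with dBET1 (n = 2 libraries a group), points the single libraries and error bars the SD. ATP5MC1 went from 92.4 to 24.7 CPM and ATP5MC3 from 881 to 364 CPM, while ATP5MC2 went from 234 to 184 CPM.

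Genes that act beside these subunits were described next, from lists written with earlier results known. Some subunits and partners have symbols that the rule leaves out. COX4I1, a large nuclear subunit of complex IV, had a log2 fold change of -0.60, CYCS, cytochrome c, of -1.08 and ATP5IF1, the inhibitor of ATP synthase, of -0.99, all past an edgeR Benjamini-Hochberg adjusted p of 0.05. COX4I2, the isoform of lung, had 0 counts in every library. NDUFA4L2 was called higher at 4 and 0 counts with DMSO and 10 and 22 with dBET1, but not with DESeq2, with no count filter or without DMSO replicate 2, and it did not pass the filter without dBET1 replicate 2, with counts divided by 2 or with at least 10 counts. There were 47 genes listed as assembly factors, taken broadly as genes that serve the making of the complexes. Of these, 30 fell and 5 rose beside the backgrounds of 27.6% and 28.0%, with a median of -0.67. The lowest was COX14, at -1.57, and the highest was SDHAF4, at 1.32, followed by SURF1 at 0.91, ATPAF2 at 0.53, TTC19 at 0.48 and COX15 at 0.26. The number that rose was 2 without dBET1 replicate 1 and 3 without dBET1 replicate 2 or with no count filter. Of 16 tested regulators of mitochondrial biogenesis and of mitochondrial DNA, 10 fell and 1 rose, beside the same 27.6% and 28.0%. Of all tested genes at 33.2 to 225 CPM, the range used above for the subunit genes, 50.7% were lower. Neither the regulators nor the assembly factors were matched for level. The median of the 16 regulators was -0.47. TFB2M, a mitochondrial transcription factor, was the lowest at -1.18, followed by TWNK, the replicative helicase, at -1.12, while NRF1 itself was at -0.41, TFAM at -0.48 and GABPA at -0.17, the last not past the threshold. POLG, the mitochondrial DNA polymerase, rose by 0.36, a call that was lost when either dBET1 library was left out. PPARGC1A, the coactivator PGC-1alpha, had 0 and 0 counts with DMSO and 2 and 0 with dBET1. PPARGC1B and PPRC1 of the same family were at -1.01 and -0.98, YY1 at -0.68 and ESRRA at -0.67, all past the threshold. GABPB1 at 0.031 and MTERF1 at 0.13 were above 0 and not past it.

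The subunits of the same complexes coded by mitochondrial DNA did not follow the nuclear genes. Of 13, 8 rose and 1 fell, beside 28.0% and 27.6% of all tested genes. The other 4 did not pass the test, and the median log2 fold change was 0.31. MT-ND1 of complex I was the highest of them, at 2172 and 2228 CPM with DMSO and 3487 and 3264 CPM with dBET1 (0.62 ± 0.068; edgeR, Benjamini-Hochberg adjusted p = 0.000208). MT-ND5 was the gene that fell, at -0.22 ± 0.063, a call lost with at least 10 counts, with total counts only and without either dBET1 library, while 2 genes were lower without DMSO replicate 1. MT-CYB of complex III was at 0.53. Relative to the median of all tested genes, the median of the 13 genes was 0.26, and 0.0035 to 0.36 under the other settings, so the size of this rise depended on the filter and the libraries used. The number that rose was 5 in place of 8 with no count filter, and also 5 without dBET1 replicate 1. A ratio of counts within a library does not depend on the scale. For every 100 counts of mitochondrial genes of complexes I, III, IV and V, the libraries held 29.6 and 29.7 nuclear subunit counts with DMSO and 12.4 and 12.9 with dBET1, a ratio of 0.427. By complex this ratio was 0.430 in I, 0.385 in III, 0.477 in IV and 0.409 in V, and in each complex both dBET1 libraries were below both DMSO libraries.

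**Figure D5:**
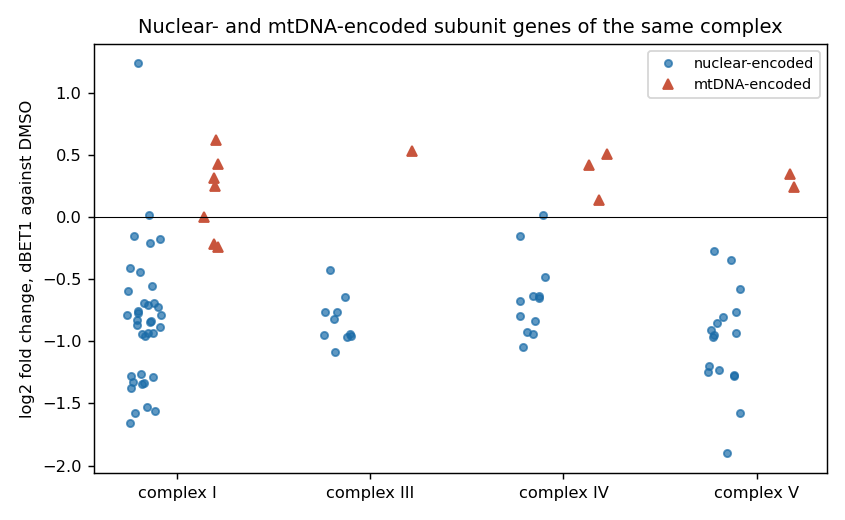
Each circle is the log2 fold change, dBET1 against DMSO, of 1 nuclear subunit gene and each triangle that of 1 of the 13 mitochondrial subunit genes, by complex; complex II has no mitochondrial gene, and ATP5MF-PTCD1 lies above the plotted range. Triangles lie between -0.24 and 0.62, above most circles of the same complex.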

How the data were processed

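RNA from 2 dBET1 and 2 DMSO samples was extracted with TRIzol per the labels, made into TruSeq libraries and sequenced on a NovaSeq. The authors aligned paired-end reads to hg38 with HISAT2 2.2.0, estimated abundances with StringTie and deposited whole-number counts per Ensembl gene, without normalization. The step from abundances to counts and its strand setting are not given in the sources used here, so overlapping genes and pseudogenes can share counts. The control columns carry the name NC and were taken as the DMSO samples, the only other group. No column was left out (0 columns), and 0 lines named no gene.

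Symbols came from GENCODE v44, in which 56105 of 64252 identifiers were found; the rest held 2.57% of counts. Counts were tested with edgeR 4.0.16 (R 4.3.3; filterByExpr, TMM, quasi-likelihood, no covariate beside the group), and p-values of 17971 genes were adjusted by Benjamini-Hochberg. The biological coefficient of variation was 0.123, and replicates differed by more than sampling noise (chi-square per degree of freedom 23.6 for DMSO and 8.14 for dBET1). Intervals and limits for low counts cover counting error only. The steps were tested on simulated counts. A gene was called at an adjusted p under 0.05, with an absolute log2 fold change above 1 for the second count. CPM per kb used the length of the canonical transcript. Alternatives were the Wald test of DESeq2 1.42.0, DESeq2 size factors with edgeR, scaling by total counts, a minimum of 10 counts per library, no filter, counts divided by 2, pseudogene counts added, the replicate number as a block and each library left out in turn. Named genes were, for each complex, the 2 lowest, the 2 highest and the most abundant per kb, all past both thresholds, the core subunits and isoform pairs, untested members, and the extremes of each list; 1 gene that the rule names is not reported here, and other genes were named after their values were seen. The members and lists were chosen with earlier results of these data known. Promoter sequences came from RefSeq (GRCh38.p14). Annotation and summaries used Python 3.11.15 with pandas 2.3.3.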

Additional observations from a re-analysis of the deposited data

How the results depend on the processing

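The 73 lower genes were negative under all 12 alternatives, and 67 were called under every one. ATP5MC2, ATP5PD, NDUFA7, NDUFB1, SDHA and UQCRB lost the call in at least 1. The numbers of genes higher, with and without the fold limit, were 0 with DESeq2, with at least 10 counts, with counts divided by 2 and with no filter. Scaling by total counts only moved the median of all tested genes from 0.048 to 0.26 and the subunit medians to -0.62 (all), -0.62 (I), -0.45 (II), -0.67 (III), -0.46 (IV) and -0.73 (V), with 67 genes lower. Relative to the median of all genes, the subunit median was -0.88 under both scales. Medians moved by more than the replicate spread with at least 10 counts (-0.76 in I, -0.59 in II, -0.88 in V), with no filter (-0.71 in II, -0.98 in V) and with counts divided by 2 (-0.63 in II). Leaving out each library gave 68 to 76 lower genes, 19 to 34 past the fold limit, 0 to 1 higher with and without the limit, and medians of -0.96 to -0.79 (all), -0.97 to -0.76 (I), -0.70 to -0.66 (II), -0.94 to -0.81 (III), -0.77 to -0.62 (IV) and -0.999 to -0.94 (V). Values changed sign for NDUFA2 (0.057), NDUFV3 (0.037) and COX7A2L (0.059) with total counts only, none of them called. They also did for NDUFB5 at -0.0039 (DESeq2), -0.0039 (its size factors), -0.042 (no filter), -0.084 (without DMSO replicate 1) and -0.040 (without dBET1 replicate 1), with at most 0.052 when 1 library was left out, and for COX6B2 at -0.034 (no filter), -0.33 (without DMSO replicate 2) and -0.066 (without dBET1 replicate 1), with at most 0.44. The causes were not tested.

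Whether the replicate numbers pair samples across the groups is not stated. Over the tested genes, the correlation between the DMSO and the dBET1 replicate differences was -0.00052. That value holds a single difference per group and cannot show how the cultures were set up. With the replicate number as a block, 73 genes were lower, 20 past the fold limit, and 2 higher with and without it, since NDUFA3 was called. Totals of 28019956 to 34685645 counts limit only the genes with few counts.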

Other observations

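Among 78 subunit genes with at least 100 counts in every library, Spearman's rho of the log2 fold change was 0.025 with mean CPM, 0.14 with the length of the canonical transcript and -0.058 with its number of exons. The genes share their libraries, and these values are given as descriptions. For the log2 ratio of DMSO replicate 2 to replicate 1, rho with transcript length was -0.22.

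Pseudogenes named after a subunit gene numbered 186 in the table, for 49 of the 86 genes. Only 4 subunit genes had pseudogene counts above 1% of their own with DMSO: SDHA at 55.0%, UQCRFS1 at 5.55%, COX6A1 at 2.03% and SDHD at 1.62%. The pseudogenes of SDHA held 2619 and 2181 counts with DMSO and 2313 and 2624 with dBET1, while SDHA held 4537 and 4195 with DMSO and 3679 and 3458 with dBET1.

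The T cell receptor complex gene CD3D, outside the lineage on the label, had 912 and 899 counts with DMSO and 332 and 325 with dBET1. CD3E, the other T cell marker, had 2 and 0 counts with DMSO and 0 and 0 with dBET1.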
